A study of Solanum lycopersicum with 4 samples.

Results

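The florigen and antiflorigen family of tomato (Solanum lycopersicum) was examined as 6 genes, SFT, SP, SP5G, SP6A, SP2G and SP9D, together with SSP, which encodes a bZIP transcription factor that binds their products. These 7 genes were picked by identifier out of 34727 listed genes, with earlier results of these data known. The libraries came from shoot meristems of tmf mutant plants and of wild-type plants, 2 libraries per genotype, sampled on day 8 after germination, a stage the labels call late vegetative. Each library was made from pooled meristems of several plants, and the allele of the mutant and the cultivar are not given in the labels. TMF, for TERMINATING FLOWER, encodes a member of the ALOG family of plant nuclear proteins.

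The proteins of this family resemble phosphatidylethanolamine-binding proteins and act as mobile or local signals that set when and where a shoot flowers. SFT, made in leaves, travels to the meristem as florigen and promotes flowering, while SP acts against it and keeps shoots growing. Neither binds DNA itself: both join 14-3-3 proteins and a bZIP factor of the FD type, such as SSP, so the balance between them at this shared partner is held to decide between growth and flowering. Tomato varieties that carry a mutated SP have the compact determinate habit used in field production.

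Reads assigned to genes numbered 19674165 and 17540331 in tmf libraries 1 and 2, and 28310492 and 22977411 in wild-type libraries 1 and 2. Levels are given as normalised reads, meaning reads per 10000000 gene-assigned reads of a library. TMF itself had 6.1 and 6.27 normalised reads in tmf libraries, against 1238 and 2224 in wild-type libraries. In a fit across 21437 genes, 46 genes differed between genotypes at an adjusted p under 0.05 (limma, Benjamini-Hochberg), which is 0.215% of the genes tested. Neither SSP nor any member of the family was among them, nor in the calls of edgeR, DESeq2 or limma-voom on the recovered reads. Of the 3 with enough reads to be tested, 1, SSP, had an unadjusted p under 0.05 (limma), where 6.2% of all genes tested did.

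Only 3 of the 7 genes were read at all in these meristems. SFT (Solyc03g063100.1.1, chromosome 3) had 0 reads in each of the 2 tmf and 2 wild-type libraries. The same held for SP5G (Solyc05g053850.2.1, chromosome 5), an FT-like gene known as a repressor of flowering in long days, and for SP6A (Solyc05g055660.1.1, chromosome 5), an FT-like gene whose potato counterpart triggers tuber formation. SP9D (Solyc09g009560.1.1, chromosome 9), a relative of SP in the TERMINAL FLOWER 1 branch, was also without a read. With 0 reads found, a level of up to 1.52 and 1.71 normalised reads could still be present in tmf libraries 1 and 2, and one of up to 1.06 and 1.31 in wild-type libraries 1 and 2. These limits, set at 3 reads per library, and all intervals given for reads cover counting error only. Over the whole table, 25.2% of the listed genes had no read in any library, beside 4 of the 7 here. No fold change can be given for these 4 genes, and transcripts below the limits could have gone unread at this depth in either genotype.

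**Figure D1:**
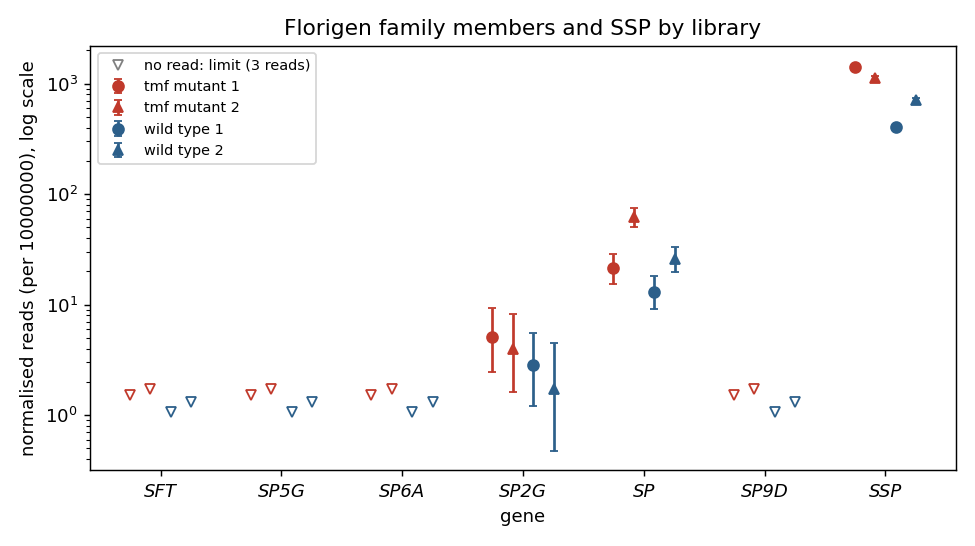
Level of each of the 7 genes in each library, in normalised reads per 10000000 on a log axis, with tmf mutant libraries in red and wild-type libraries in blue. Bars are 95% exact Poisson intervals, and open triangles mark the limit of 3 reads where no read was found; SSP lies between 401 and 1411, SP between 13.1 and 61.6 and SP2G at 5.08 or below.

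SSP (Solyc02g083520.2.1, chromosome 2) gave the most reads of the 7 genes, although read numbers also depend on transcript length and are not used here to order the genes. It was at 1411 and 1119 normalised reads in tmf libraries 1 and 2, and at 401 and 707 in wild-type libraries 1 and 2. The groups did not overlap, and the lowest mutant level was 1.58 times the highest wild-type level (95% counting interval 1.48 to 1.69). The most distant pair, tmf library 1 over wild-type library 1, differed by 3.52 times (3.29 to 3.78). Means were 1265 ± 206 in tmf libraries and 554 ± 217 in wild-type libraries (SD, n = 2 each), a ratio of 2.28. In a bulk sample, more cells that contain a transcript and more of it per cell cannot be told apart.

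The difference in SSP did not pass the test over all genes. Its log2 fold change was 1.24 with a 95% interval of 0.54 to 1.93 (limma, unadjusted p = 0.0033, Benjamini-Hochberg adjusted p = 0.29). On the recovered reads, the adjusted p of SSP was 0.052 in DESeq2, just over the threshold, 0.32 in edgeR and 0.28 in limma-voom. Of all genes tested, 3.63% had a log2 fold change at least this large, and 20.7% had both tmf libraries above both wild-type libraries. The size rested on the wild-type libraries, which differed from each other by 1.77 times (1.64 to 1.91), more than the 1.26 times (1.19 to 1.34) between the tmf libraries. Without wild-type library 1 the log2 fold change of SSP was 0.83, and without wild-type library 2 it was 1.65 (limma adjusted p of 1 and 0.37).

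SP (Solyc06g074350.2.1, chromosome 6), the antiflorigen gene, was read at a low level. It was at 21.3 and 61.6 normalised reads in tmf libraries 1 and 2, from 42 and 108 reads, and at 13.1 and 25.7 in wild-type libraries 1 and 2, from 37 and 59 reads. The genotypes overlapped, since tmf library 1 lay below wild-type library 2, with a ratio of 0.83 (95% counting interval 0.55 to 1.26). Library 2 of tmf stood apart from the other 3, and its interval of 50.5 to 74.3 did not meet any of theirs.

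Libraries of one genotype differed in SP by more than counting error. Library 2 of tmf was 2.88 times tmf library 1 (95% counting interval 2.00 to 4.22), and wild-type library 2 was 1.96 times wild-type library 1 (1.28 to 3.05). The mean was 41.5 ± 28.4 in tmf libraries and 19.4 ± 8.92 in wild-type libraries (SD, n = 2 each). The log2 fold change between genotypes was 0.95, with a 95% interval of -0.38 to 2.28 (limma adjusted p = 0.96). That interval holds 0 as well as a difference of more than 2 on the log2 scale, so it does not show that SP was alike in both genotypes. The estimate turned on tmf library 2: the log2 fold change of SP was 0.21 without it, and 1.69 without tmf library 1 (limma adjusted p of 0.96 and 0.64). It was 0.49 without wild-type library 1 and 1.41 without wild-type library 2 (limma adjusted p of 1 and 0.67).

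SP2G (Solyc02g079290.2.1, chromosome 2) belongs to the MOTHER OF FT AND TFL1 branch, which in Arabidopsis acts in seed germination. It was near the limit of detection, at 5.08 and 3.99 normalised reads in tmf libraries 1 and 2 and at 2.83 and 1.74 in wild-type libraries 1 and 2. These levels stand on 10 and 7 reads in tmf libraries and 8 and 4 in wild-type libraries. Both mutant levels were above both wild-type levels, but the 95% counting intervals of all 4 libraries overlapped. The log2 fold change of SP2G was 0.77 with a 95% interval of -0.48 to 2.02 (limma adjusted p = 0.98). In all, 2 of the 3 genes with reads, SSP and SP2G, had tmf libraries that lay wholly above the wild-type libraries, as did 20.7% of all genes tested, and SP did not.

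The balance between SP and its partner SSP was then set out library by library. For each 1000 reads of SSP there were 15.1 and 55.0 reads of SP in tmf libraries 1 and 2, and 32.6 and 36.3 in wild-type libraries 1 and 2. The 2 tmf libraries fell on either side of the wild type, tmf library 1 below both wild-type libraries and tmf library 2 above both. Put the other way, 66.1 and 18.2 SSP reads were found per SP read in the mutant, against 30.6 and 27.5 in wild-type libraries. The interval of tmf library 1, from 10.9 to 20.5, met neither that of tmf library 2, from 44.9 to 66.8, nor those of the wild-type libraries, from 22.9 to 45.2 and from 27.5 to 47.1. The interval of tmf library 2 did meet the upper ends of the wild-type ones. These are ratios of reads, not of molecules, because no source used here gives the lengths of the transcripts counted. Length does not alter the comparison between libraries.

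**Figure D2:**
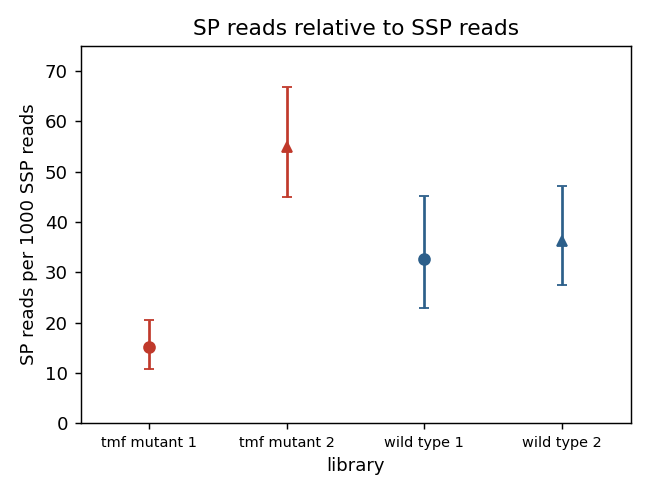
Reads of SP per 1000 reads of SSP in each library (tmf mutant in red, wild type in blue), with 95% exact binomial intervals for counting error. The wild-type libraries lie close together at 32.6 and 36.3, with tmf library 1 below them at 15.1 and tmf library 2 above them at 55.0.

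No shift of this balance common to both tmf libraries was found. For this ratio, 1 was added to each normalised level, unlike in the read ratios above. The mean log2 ratio of SP to SSP was -5.07 ± 1.29 in tmf libraries and -4.78 ± 0.07 in wild-type libraries (SD, n = 2 each). The difference was -0.29 and gave p = 1 in a two-sided exact permutation test, in which 2 libraries against 2 can reach no less than 0.33. Leaving out tmf library 1 turned the sign, with a difference of 0.62 on the log2 scale, while leaving out tmf library 2 gave -1.20. The spread between the tmf libraries was thus larger than the difference between genotypes.

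Levels of tissue markers differed between the same libraries. The summed level of 6 leaf and photosynthesis identifiers was 17798 and 33635 normalised reads in tmf libraries 1 and 2, and 26593 and 31004 in wild-type libraries 1 and 2. All 6 were higher in tmf library 2 than in tmf library 1, as SP was, and 5 of 6 were higher in wild-type library 2 than in wild-type library 1. The wild-type order was not particular to leaf genes. It held for 11 of 12 genes for proteins that bridge florigen to the bZIP factor, and for all 4 meristem and all 4 floral genes listed below. In tmf libraries, 4 of those 12, 0 meristem and 0 floral genes were higher in library 2. The share of all genes with either order was not counted. Among the 30 genes compared on the lists compiled here, the one nearest to SP in pattern over the 4 libraries was RBCS-2A. This gene of the Rubisco small subunit lay at a distance of 1.24 on the log2 scale. It was not a close match, since the nearest gene of the whole table lay at 0.10. RBCS-2A was at 11347 and 18648 in tmf libraries and at 13742 and 16994 in wild-type libraries, a narrower range than that of SP. Between genotypes the leaf list did not run with SP: all 6 had negative log2 fold changes, from -1.29 to -0.07, while that of SP was 0.95. The 3 leaf identifiers CAB3A, CAB3C and Solyc03g005770.1.1 lay wholly lower in the mutant, as did 12.1% of all genes tested, and none of the 6 passed over all genes (limma; 3 had an unadjusted p under 0.05). No marker of the leaf list was at 0 in any library, and the part of leaf tissue in the SP values was not tested.

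Values of 2 other marker lists are set beside those of SSP. The summed level of 4 floral genes, AN, EJ2, TM5 and J2, was 1901 and 456 normalised reads in tmf libraries 1 and 2, against 7.06 and 12.2 in wild-type libraries. All 4 lay wholly higher in the mutant, beside 20.7% of all genes tested, on a list compiled with results of these libraries known. EJ2, TM5 and J2 passed over all genes (limma adjusted p of 0.0012, 0.027 and 0.035), and AN did not (0.07). Of 4 shoot meristem genes, TKN2, WUS, CLV3 and GOB, none separated the genotypes, and their summed level was 3991 and 1892 in tmf libraries against 1604 and 2236 in wild-type libraries. For both lists tmf library 1 was above tmf library 2 and wild-type library 2 above wild-type library 1, which is the order that SSP had within each genotype. This order was not particular to these lists. The list of 12 genes for proteins that bridge florigen to the bZIP factor was at 32112 and 29807 in tmf libraries, and 27608 and 32945 in wild-type libraries. The floral order in wild-type libraries rested on few reads (AN 1 and 6, EJ2 4 and 5, TM5 4 and 4, J2 11 and 13). The share of all genes with this order was not counted. Their part in the SSP values was not tested.

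**Figure D3:**
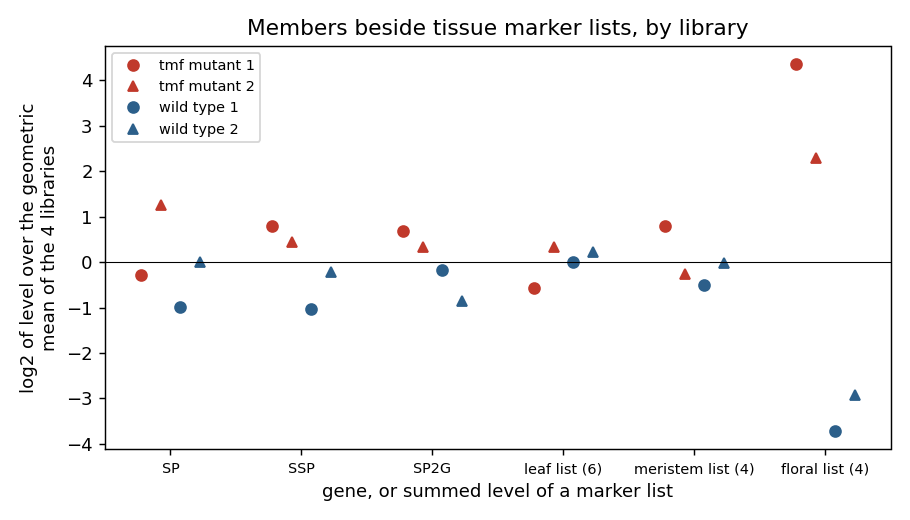
Level of SP, SSP and SP2G and the summed level of 3 marker lists in each library, as log2 of the level over the geometric mean of the 4 libraries (tmf mutant in red, wild type in blue; circles library 1, triangles library 2). SP and the leaf list are both higher in tmf library 2 than in tmf library 1, whereas SSP, the meristem list and the floral list are higher in tmf library 1.

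The nearest patterns in the whole table were found by the distance between centred log2 levels over the 4 libraries, among 17616 genes that averaged 10 normalised reads or more. For SP they were Solyc01g095530.2.1, at 394 and 1104 in tmf libraries and 261 and 452 in wild-type libraries (distance 0.10), and Solyc11g011210.1.1 (distance 0.22). For SSP they were Solyc08g066420.1.1, at 249.6 and 202 in tmf libraries and 66.8 and 121 in wild-type libraries (distance 0.08), and Solyc04g072110.2.1 (distance 0.14). None of these identifiers carries a name in the sources used here. With 4 libraries and so many genes, close matches are found for many patterns, and these are given as a description.

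Other genes of the florigen pathway were taken from a list of 22 identifiers compiled from published tomato nomenclature. The list was chosen with earlier results of these data known, and 18 of its identifiers had enough reads to be tested. None passed over all genes (limma), while 5 had an unadjusted p under 0.05, where 6.2% of all genes did. Their median log2 fold change was 0.10, against 0.04 over all genes tested. On the recovered reads, edgeR's quasi-likelihood test called 50 of all 21437 genes tested, DESeq2 214 and limma-voom 27. Of the listed genes, 1 passed in edgeR's quasi-likelihood test (FUL2), 3 in DESeq2 (FUL2, AN and FA) and none in limma-voom. Without tmf library 2, the limma log2 fold changes were 7.62 for AN, 3.52 for FUL2 and 4.70 for Solyc05g056620.1.1. Without tmf library 1 they were 4.43 for AN and 2.34 for FUL2. In these fits the mutant has 1 library, so a gene's own spread comes from the wild-type pair. The test moderates that spread toward a trend over all genes.

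Among the listed identifiers without a matched name are the 3 listed as partner genes, for which the sources used here hold no name or description. Of these, Solyc02g061990.2.1 was the listed gene nearest to SSP in its pattern (distance 0.61). It was at 768 and 347 normalised reads in tmf libraries 1 and 2, and at 196 and 306 in wild-type libraries 1 and 2. Both tmf libraries were higher than both wild-type libraries, and the log2 fold change was 1.07 with a 95% interval of 0.18 to 1.97 (limma adjusted p = 0.65). Solyc11g008640.1.1 and Solyc11g008650.1.1 had 0 reads in all 4 libraries, like SFT.

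The 14-3-3 list held 12 identifiers, of which 5 could be matched to TFT1, TFT3, TFT6, TFT7 and TFT9 in the reference table and the rest stand by identifier only. 14-3-3 proteins bind florigen in the cell and bridge it to the bZIP factor, as worked out in rice. Of the 11 tested, none passed in either direction, and their log2 fold changes ran from -0.23 to 0.50 with a median of -0.10. The highest was TFT7, at 6601 and 4903 normalised reads in tmf libraries and 3467 and 4642 in wild-type libraries (log2 fold change 0.50, limma adjusted p = 0.96). Its tmf libraries lay just above its wild-type libraries. The lowest was Solyc04g012120.2.1, at 3301 and 3652 in tmf libraries against 4160 and 4005 in wild-type libraries (log2 fold change -0.23, limma adjusted p = 1). The 95% intervals of the 11 genes together spanned -0.84 to 1.23. One identifier, Solyc05g012420.2.1, had 1 read in all and was not tested.

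Genes that act downstream of florigen in the passage to flowering made up the last list, with 7 identifiers of which 6 were tested. None of the 6 passed over all genes (limma), and 4 had an unadjusted p under 0.05, beside 6.2% of all genes tested. These 4 had positive log2 fold changes, on a list chosen with earlier results of these data known. FUL2, a MADS-box gene related to FRUITFULL of Arabidopsis, was at 361 and 159.6 normalised reads in tmf libraries and 25.4 and 37 in wild-type libraries, with no overlap. AN, the F-box gene of floral identity, was at 435 and 46.7 in tmf libraries against 0.353 and 2.61 in wild-type libraries. FA, the LEAFY homologue of tomato, was at 3798 and 2388 in tmf libraries and 1372 and 1399 in wild-type libraries. For these genes the limma adjusted p was 0.055 for FUL2, 0.07 for AN and 0.32 for FA.

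The other target identifiers were low. Solyc05g056620.1.1 was at 24.9 and 1.14 normalised reads in tmf libraries and had no read in wild-type libraries (limma adjusted p = 0.65), so its level lay almost wholly in tmf library 1. FUL1, a second gene of that kind, was at 17.3 and 14.3 in tmf libraries against 24.7 and 33.1 in wild-type libraries (limma adjusted p = 0.86). Its tmf libraries were both below its wild-type libraries, an arrangement found in 12.1% of all genes tested. MBP20 and MBP10 stayed at 12.2 normalised reads or below in every library.

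**Figure D4:**
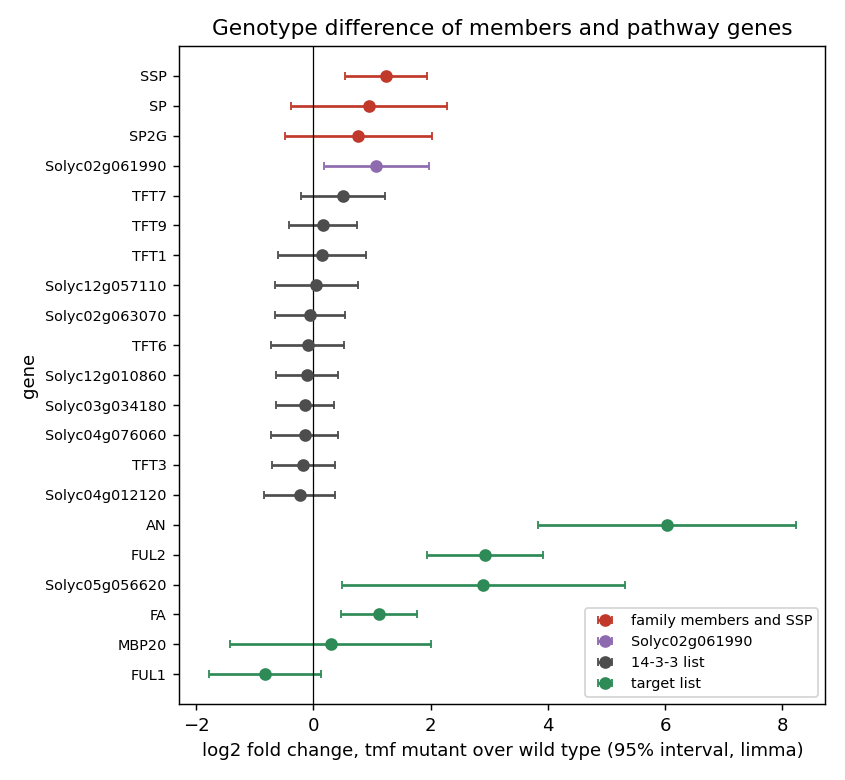
Log2 fold change, tmf mutant over wild type, with 95% intervals from limma, for the tested members, 14-3-3 genes, targets and Solyc02g061990 (genes run down the page by list). The 11 genes of the 14-3-3 list lie between -0.23 and 0.50 with intervals across 0, while SSP at 1.24 and FUL2 at 2.93 have intervals above 0 before adjustment for the number of genes tested.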

How the data were processed

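The authors deposited 1 table of scaled read counts, a signal of normalised reads per gene whose columns each sum to 10000000. Per the submitters' processing notes, Bowtie 0.12.5 and edgeR were used. No source used here gives the genome build, annotation, counting tool, strand or handling of reads shared by related genes. Read counts were recovered, since dividing each value by the smallest nonzero one of its library gave whole numbers for 100% of genes with reads (tolerance 1e-06). The main test was limma 3.58.1 (R 4.3.3), trend option on, comparing genotypes on log2(value + 1) in genes averaging 1 normalised read or more, with Benjamini-Hochberg adjustment at 0.05. The pseudocount makes fold changes of low genes too small. Alternatives were edgeR 4.0.16 (called 50 genes), DESeq2 1.42.0 and limma-voom on the recovered reads, other pseudocounts, filters and scalings, replicate blocks and leaving out each library. Deviations of same-numbered libraries correlated at -0.11, and no shared batch is stated, so no block was used. The limma p-values set the genotype difference against the spread between these pooled samples, moderated toward a trend over all genes.

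The reference table (assembly SLM_r2.1) does not hold these identifiers. A name is printed where the table places a gene of that name, a known alias or an entry taken for it on the same chromosome. The place had to be within 5 percentage points of the identifier's relative order. This held for all 7 members (largest gap 2.97) and for 30 of 42 listed identifiers. SSP was matched as SPGB, AN as DOT, EJ2 as MADS1, FA as FALSIFLORA, TKN2 as T6 and GOB as NAM. TM5, J2, RBCS-2A and CAB3A were matched to entries whose symbols are LOC numbers, not names. TMF has no entry, and its name rests on published nomenclature. The members and lists were chosen with earlier results of these data known. The genes named were the members, the listed identifiers outside the 14-3-3 group, the extremes of that group, and the genes most like SP and SSP. No sequences are shown, as no sequence table was used here.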

Additional observations from a re-analysis of the deposited data

How the results depend on the processing

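SP, SSP and SP2G kept a positive log2 fold change in every alternative run, and SP and SP2G passed in none. The stricter filter, a mean of 10 normalised reads, removes SP2G. SSP passed only with the replicate block (log2 fold change 1.24, adjusted p = 0.012) and the crossed replicate block (1.24, adjusted p = 0.014). The crossed block was chosen after seeing the data, and nothing in the labels says that replicate numbers pair the samples. Leaving out 1 library gave log2 fold changes of 0.21 to 1.69 for SP, 0.83 to 1.65 for SSP and 0.53 to 1.01 for SP2G. The SP to SSP difference ranged from -1.20 to 0.62, the positive value being that without tmf library 1. The 46 genes called became 214 with DESeq2, 27 with limma-voom, 19 under the stricter filter, 368 under the replicate block and 219 under the crossed one. They were 6 to 61 with 1 library left out, and 6 without either wild-type library. Of the partner and target genes, 0 passed in the main analysis, 1 in edgeR's quasi-likelihood test, 3 in DESeq2, 1 with no filter, 3 with the replicate block, 4 with the crossed block and 0 to 3 with 1 library left out, fits in which the spread comes from the remaining pair alone. The cause was not tested. Depth limits SP2G, read from 4 to 10 reads a library, and the 4 unread genes. The SP to SSP ratio was not divided by coding length, because no lengths were used here, so that alternative was not run.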
